A study of Mus musculus with 17 samples.

Results

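Transcripts of 9 complement genes were followed in mouse lung after a single high dose of radiation: the C1q chains C1qa, C1qb and C1qc, the components C2, C3, C4b and Cfb, and the receptors C3ar1 and C5ar1. They were taken by gene symbol from a count table of 45777 genes, and all 9 were found and passed the filter on low counts. The lungs came from male wild-type C57BL/6 mice, 6 weeks old on arrival and irradiated after a week of acclimatisation. The left lung received 65 Gy or 75 Gy in 1 fraction from an image-guided small-animal irradiator, and control mice received no radiation. Lungs were collected after 2 weeks, the stage the study calls inflammation, or after 6 weeks, which it calls fibrosis. There were 3 libraries in each of the 6 groups except 65 Gy at 6 weeks, which had 2. The study lists 3 replicates for that group, and only 2 are among the samples used here. RNA of irradiated mice was taken from the lesion of a focal beam, and where in the control lungs tissue was taken is not given in the sources used here, so radiation and sampling site cannot be told apart.

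Complement is a cascade of plasma and tissue proteins that marks microbes, dying cells and immune complexes for removal. C1q, built from the chains that C1qa, C1qb and C1qc encode, binds such surfaces and starts the classical pathway, in which C4 and C2 form the enzyme that cleaves C3. Factor B (Cfb) forms the equivalent enzyme of the alternative pathway, which amplifies C3 cleavage. The small fragments C3a and C5a act on leukocytes through C3ar1 and C5ar1. The liver makes most plasma complement, whereas tissue macrophages are a main source of C1q, and lung epithelium, fibroblasts and macrophages also make components locally.

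All 9 genes lie on the minus strand of build GRCm38.p6. C1qb, C1qc and C1qa sit side by side on chromosome 4, from 136880126 to 136898844, a span of 18719 bases, and each has 3 exons. C2 (chr17:34862602-34882100) and Cfb (chr17:34856374-34862514) are neighbours in the major histocompatibility region, 87 bases apart, and C4b (chr17:34728139-34743902) lies 112471 bases from Cfb. C3 (chr17:57203967-57228136) is elsewhere on chromosome 17. C3ar1 (chr6:122847140-122856157) and C5ar1 (chr7:16246743-16259540) are single genes of 2 exons each.

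RefSeq promoter sequence of build GRCm38.p6 was at hand for C1qb, C1qc, C3, C3ar1 and C5ar1, and not for C1qa, C2, C4b and Cfb. Of those, 3 are shown as the 250 bases before the annotated start, 5′ to 3′ on the gene's own strand: 1 of a C1q chain, 1 of C3, which changed less, and 1 of the receptor with the largest change. Capitals mark matches to the motifs searched.
C1qb (chr4:136886201-136886450): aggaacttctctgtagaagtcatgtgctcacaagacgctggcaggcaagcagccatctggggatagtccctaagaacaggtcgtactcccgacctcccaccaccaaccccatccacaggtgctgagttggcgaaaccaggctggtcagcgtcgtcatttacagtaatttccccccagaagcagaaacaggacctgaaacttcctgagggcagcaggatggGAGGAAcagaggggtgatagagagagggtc
C3 (chr17:57228137-57228386): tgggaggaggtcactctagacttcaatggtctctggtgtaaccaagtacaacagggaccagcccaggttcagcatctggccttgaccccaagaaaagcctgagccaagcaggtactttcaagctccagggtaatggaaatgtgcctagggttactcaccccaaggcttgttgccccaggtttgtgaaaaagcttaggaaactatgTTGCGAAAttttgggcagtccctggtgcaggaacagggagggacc
C3ar1 (chr6:122856158-122856407): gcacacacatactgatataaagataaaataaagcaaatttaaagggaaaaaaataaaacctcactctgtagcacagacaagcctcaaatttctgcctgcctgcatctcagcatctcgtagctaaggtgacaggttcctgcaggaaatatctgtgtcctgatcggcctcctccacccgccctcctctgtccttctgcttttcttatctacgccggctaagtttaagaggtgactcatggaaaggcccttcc
Motifs searched on both strands included GAAANNGAA, an interferon regulatory factor core, TTGCNNAA, a C/EBP core, GAGGAA, the core of the myeloid factor PU.1, and the kappaB motif. Among 32851 windows of this length, 7.13% held the interferon regulatory factor letters, 9.56% the C/EBP letters, 23.3% the PU.1 letters and 3.9% the kappaB motif. C1qb held PU.1 letters 30 to 25 bases before the start, and C1qc held them 193 to 188 bases and a kappaB match 41 to 32 bases before the start used for its window. C3 held C/EBP letters 45 to 38 bases before its start, C5ar1 held interferon regulatory factor letters 66 to 58 bases before the start used for its window, and the C3ar1 window held none of these motifs. The windows of C1qc and C5ar1 reach into the annotated span of the gene. These are matches of letters only.

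The 17 libraries held from 46764569 to 66797879 counts each. Levels are given as CPM, counts rescaled to the same library total, with totals adjusted by the trimmed mean of M-values. A gene was said to have risen or fallen when the adjusted p was at most 0.05 and the fold change at least 2, by edgeR's quasi-likelihood test of all libraries in 1 fit with Benjamini-Hochberg adjustment over the 22052 genes tested. All adjusted p-values below come from that test. Markers of alveolar type 2 cells, led by Sftpc and Sftpa1, summed to between 17424 and 32520 CPM in every library and hepatocyte markers (Alb, Apoa1 and 3 others) to between 0.551 and 1.97 CPM. Most of these hepatocyte markers had 0 counts in most libraries. Their sum was between 1.64 and 1.97 CPM at 75 Gy and 6 weeks and between 0.551 and 1.02 CPM in the 6-week controls. At 75 Gy and 2 weeks, library 3134 was above the other libraries of its group for C1q, C3, Cfb, C3ar1 and C5ar1, and values without it are given beside the results it moves most.

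At 2 weeks, C1qa, C1qb, C1qc, Cfb and C3ar1 rose at both doses, which is 5 of the 9 genes. For comparison, 5.67% of all genes tested rose at 75 Gy and 3.47% at 65 Gy. At 6 weeks, 6 of the 9 rose at 75 Gy (the same genes and C4b), where 7.28% of all genes rose, and 5 rose at 65 Gy (the C1q chains, C4b and C3ar1), where 4.34% rose. None of the 9 fell in any of these comparisons. Falls were few in general: of the 22052 genes tested, 457 fell at 75 Gy and 194 at 65 Gy at 2 weeks, and 691 and 208 at 6 weeks. RNA of whole tissue cannot tell more cells that carry a transcript from more of it per cell. The median log2 fold change of the 9 was 2.80 at 75 Gy and 2.20 at 65 Gy at 2 weeks, and 2.00 and 1.59 at 6 weeks, while that of all genes tested was between -0.00849 and 0.0399. The 75 Gy value at 2 weeks is that of Cfb and was 1.43 without library 3134, below the 65 Gy value. The 4 comparisons share their control libraries in pairs, so their values are set side by side and not counted as independent.

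**Figure D1:**
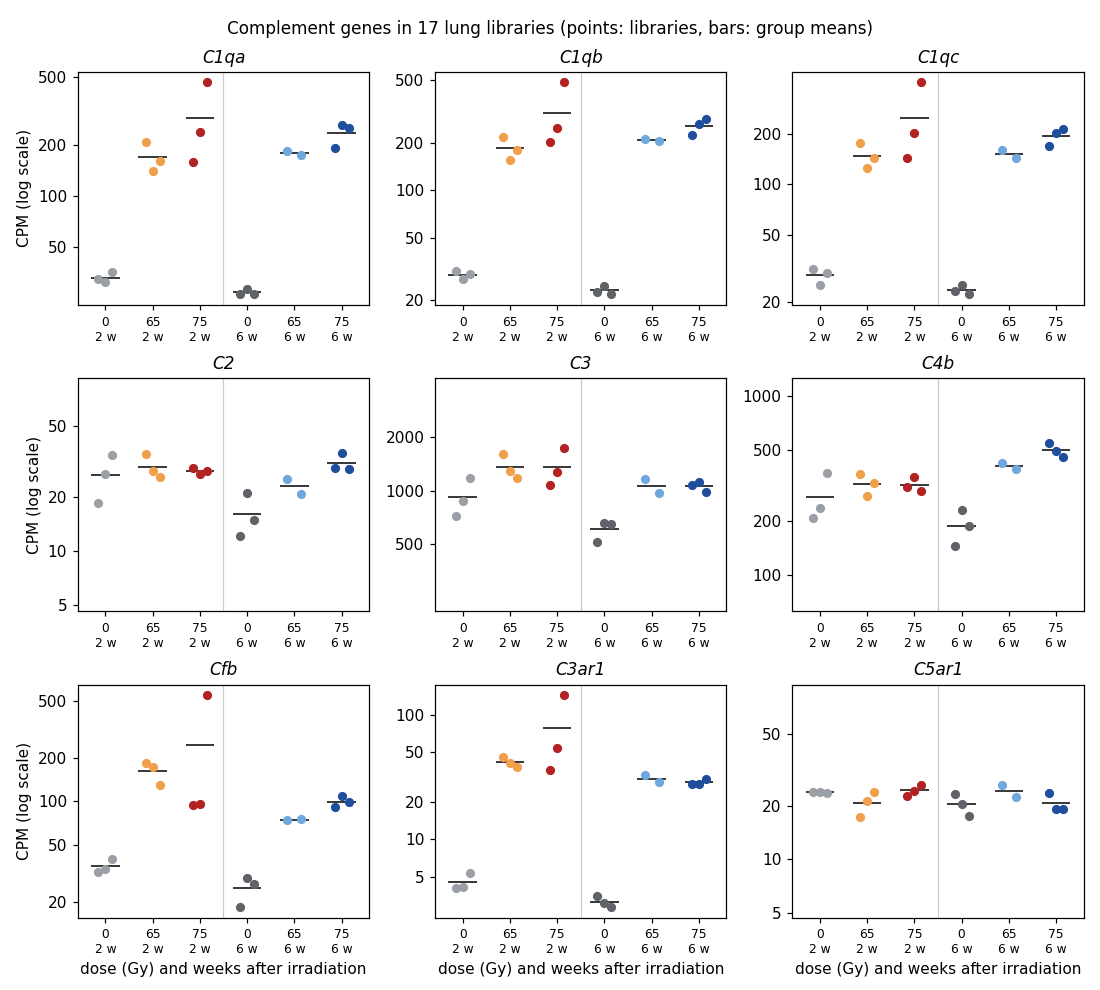
Level of each gene in CPM, on a log axis, in each of the 17 libraries by dose (0, 65 or 75 Gy) and week; points are libraries and bars are group means. C1q chains and C3ar1 separate irradiated from control libraries at both times, C5ar1 stays between 17.3 and 26.0 CPM throughout, and library 3134 is the highest of 75 Gy at 2 weeks for the C1q chains, C3, Cfb, C3ar1 and C5ar1.

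All C1q chains rose in all 4 comparisons. C1qb, the chain whose gene rose most, stood at 30.5, 27.3 and 29.3 CPM in the 2-week controls. It reached 220, 156 and 179 CPM at 65 Gy and 202, 248 and 485 CPM at 75 Gy. By 6 weeks C1qb stood at 22.6, 24.7 and 21.8 CPM in controls, 213 and 205 CPM at 65 Gy, and 225, 264 and 284 CPM at 75 Gy. No irradiated library overlapped a control at either time. The log2 fold change of C1qb was 2.67 (SE 0.25, adjusted p = 1.44e-05) at 65 Gy and 3.42 (SE 0.26, adjusted p = 9.77e-07) at 75 Gy at 2 weeks. At 6 weeks it was 3.18 (SE 0.27, adjusted p = 4.02e-06) and 3.48 (SE 0.26, adjusted p = 6.67e-07), the latter 11.2-fold with a 95% interval of 7.64 to 16.3.

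C1qa and C1qc followed the same course at smaller folds. C1qa went from 33.3 ± 2.46 CPM (SD, n = 3) in 2-week controls to 169 ± 34.0 (SD, n = 3) at 65 Gy and 287 ± 158 (SD, n = 3) at 75 Gy. At 6 weeks C1qa was at 27.2 ± 1.20 CPM in controls (SD, n = 3), 179 ± 7.34 at 65 Gy (SD, n = 2) and 234 ± 37.2 at 75 Gy (SD, n = 3). Its log2 fold changes were 2.34 at 65 Gy and 3.11 at 75 Gy at 2 weeks, and 2.72 and 3.10 at 6 weeks, with adjusted p-values from 5.87e-06 to 0.000136. C1qc stood at 28.7 CPM in 2-week controls and at 149 and 251 CPM after 65 and 75 Gy, and at 6 weeks at 23.3, 152 and 195 CPM. Its log2 fold changes were 2.37 and 3.12 at 2 weeks and 2.70 and 3.07 at 6 weeks, with adjusted p-values from 5.58e-06 to 0.000114. Without library 3134, the 75 Gy rises at 2 weeks were 2.58 for C1qa, 2.95 for C1qb and 2.59 for C1qc, and all 3 still passed.

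The ratios between the chains were also read in each library. The log2 ratio of C1qa to C1qb counts lay between 0.09 and 0.30 in the 6 controls and between -0.34 and -0.02 in the 11 irradiated libraries. That of C1qc to C1qb lay between -0.12 and 0.05 in controls and between -0.50 and -0.26 in irradiated libraries. Neither ratio overlapped between the sets, and both were lower in irradiated libraries. These ratios need no scaling between libraries and were not tested.

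Of the classical-pathway components beyond C1q, C4b rose at 6 weeks and C2 passed both limits at neither time. C4b, which encodes the murine C4 that C1s cleaves, was at 207, 237 and 372 CPM in 2-week controls, 365, 276 and 326 CPM at 65 Gy and 311, 353 and 294 CPM at 75 Gy, and these groups overlapped. In the 6-week set C4b was at 145, 232 and 187 CPM in controls, 421 and 392 CPM at 65 Gy and 543, 493 and 455 CPM at 75 Gy. Here every irradiated library lay above every control. The log2 fold change of C4b was 0.24 at 65 Gy and 0.23 at 75 Gy at 2 weeks (adjusted p = 0.485 and 0.437). Without the highest 2-week control, library 3128, these were 0.54 and 0.52, and without control library 3126 they were 0.09 and 0.08. At 6 weeks the log2 fold change of C4b was 1.11 (SE 0.22, adjusted p = 0.00400) at 65 Gy and 1.40 (SE 0.20, adjusted p = 0.000146) at 75 Gy. The 65 Gy rise fell just under the fold limit, at 0.96, without control library 3135. A near-identical copy, C4a (chr17:34809092-34823460, a transcribed pseudogene in RefSeq), lies between C4b and Cfb, and reads shared by the pair may have been split between them, so the level of each is uncertain.

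C2, which supplies the protease of the classical C3-cleaving enzyme, was at 26.5 ± 7.92 CPM in 2-week controls (SD, n = 3), 29.3 ± 4.64 at 65 Gy (SD, n = 3) and 28.0 ± 1.07 at 75 Gy (SD, n = 3). At 6 weeks C2 was at 12.0, 21.0 and 14.8 CPM in controls, 25.1 and 20.6 CPM at 65 Gy and 29.0, 35.0 and 28.5 CPM at 75 Gy. The 75 Gy libraries lay above the controls, and 1 library at 65 Gy did not. At 75 Gy and 6 weeks its log2 fold change was 0.95 (SE 0.21, adjusted p = 0.00335), which passed the limit on p and missed that on fold. It reached 1.20 without control library 3136 and 1.02 without 75 Gy library 3143. At 65 Gy and 6 weeks it was 0.52 (adjusted p = 0.155), and at 2 weeks 0.15 and 0.08.

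C3, the protein at which all complement pathways meet, had the highest level of the 9 genes in control lung. Per kb of transcript it stood at 180 CPM in 2-week and 118 CPM in 6-week controls, above C4b at 50.6 and 35.0 CPM and the C1q chains at 19.4 to 32.0 CPM. C3 was at 717, 874 and 1175 CPM in 2-week controls, 1592, 1281 and 1176 CPM at 65 Gy and 1071, 1265 and 1738 CPM at 75 Gy. The lowest 65 Gy library was level with the highest control. In 6-week controls it was at 518, 656 and 648 CPM, with 1167 and 965 CPM at 65 Gy and 1078, 1123 and 980 CPM at 75 Gy, with no overlap. Its log2 fold change at 6 weeks was 0.81 at both doses, with adjusted p-values of 0.0207 at 65 Gy and 0.00537 at 75 Gy, under the fold limit. At 2 weeks it was 0.55 at 65 Gy (adjusted p = 0.0839) and 0.56 at 75 Gy (adjusted p = 0.0516), or 0.34 without library 3134. Without control library 3128 the 2-week values were 0.76 at 65 Gy and 0.77 at 75 Gy.

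Cfb, the alternative-pathway protease, rose at both doses at 2 weeks and at 75 Gy at 6 weeks. It was at 32.3, 33.6 and 39.7 CPM in 2-week controls, 185, 172 and 129 CPM at 65 Gy and 94.2, 95.1 and 548 CPM at 75 Gy. All irradiated libraries lay above the controls, and the mean at 75 Gy was set by library 3134, the other 75 Gy libraries being below those at 65 Gy. The log2 fold change was 2.20 (SE 0.50, adjusted p = 0.0118) at 65 Gy and 2.80 (SE 0.51, adjusted p = 0.00146) at 75 Gy. Without library 3134 the 75 Gy value was 1.43 and still passed both limits, and with only the 2 groups compared in the fit it was 2.80 with an adjusted p of 0.0548. At 6 weeks Cfb was at 18.4, 29.2 and 26.5 CPM in controls, 73.9 and 75.1 CPM at 65 Gy and 90.5, 108 and 98.1 CPM at 75 Gy. The log2 fold change was 2.00 (SE 0.50, adjusted p = 0.00633) at 75 Gy. At 65 Gy it was 1.59 (SE 0.53, adjusted p = 0.0576), which missed the limit on p although no library overlapped. Without library 3134, which is in no group of that comparison but in the shared fit, the value was also 1.59 and the adjusted p 2.82e-05. The log2 ratio of Cfb to its neighbour C2 lay between 0.21 and 0.85 in controls and between 1.56 and 4.29 after irradiation.

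Of the receptors, C3ar1 rose in all 4 comparisons and C5ar1 in none. C3ar1, the receptor for C3a, was the lowest of the 9 in controls, at 1.05 CPM per kb at 2 weeks and 0.733 at 6 weeks. It stood at 4.04, 4.13 and 5.38 CPM in 2-week controls, 45.9, 40.7 and 38.0 CPM at 65 Gy and 36.2, 54.5 and 144 CPM at 75 Gy. The 6-week values were 3.52, 3.08 and 2.86 CPM in controls, 32.9 and 28.6 CPM at 65 Gy and 27.6, 27.9 and 30.8 CPM at 75 Gy. Irradiated libraries did not overlap controls at either time. The log2 fold change was 3.20 (SE 0.37, adjusted p = 0.000104) at 65 Gy and 4.11 (SE 0.38, adjusted p = 7.62e-06) at 75 Gy at 2 weeks, the latter 17.3-fold and, without library 3134, 3.33. At 6 weeks it was 3.28 (SE 0.39, adjusted p = 0.000107) and 3.19 (SE 0.37, adjusted p = 3.30e-05). C3ar1 had the highest estimate of the 9 at 2 weeks at both doses and at 6 weeks at 65 Gy, where C1qb was within 1 SE of it, and C1qb had the highest at 6 weeks at 75 Gy.

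C5ar1, the receptor for C5a, was at 23.7 ± 0.290 CPM in 2-week controls (SD, n = 3), 20.8 ± 3.35 at 65 Gy (SD, n = 3) and 24.3 ± 1.69 at 75 Gy (SD, n = 3). By 6 weeks its mean was 20.4 ± 2.90 CPM in controls (SD, n = 3), 24.2 ± 2.58 at 65 Gy (SD, n = 2) and 20.6 ± 2.60 at 75 Gy (SD, n = 3). Its groups overlapped in all 4 comparisons. Its log2 fold changes lay between -0.19 and 0.25, and their 95% intervals between -0.47 and 0.56, so a 2-fold change in either direction was outside each interval. The log2 ratio of C3ar1 to C5ar1 counts lay between -2.73 and -2.12 in controls and between 0.23 and 2.47 in irradiated libraries. 

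**Figure D2:**
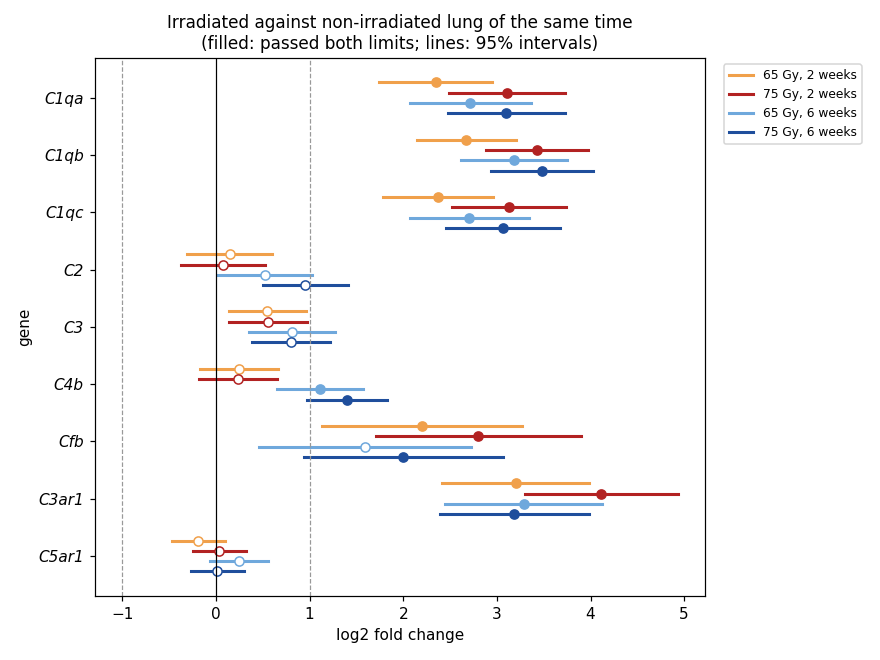
Log2 fold change of each gene over controls of its own time, with 95% intervals, for 65 and 75 Gy at 2 and 6 weeks; filled points passed both limits and dashed lines mark the fold limit. The C1q chains and C3ar1 lie between 2.34 and 4.11, C4b passes the fold limit at 6 weeks only, and C5ar1 stays between -0.19 and 0.25.

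In each comparison with controls, the number of the 9 genes whose irradiated libraries all lay above all controls was 5 at 75 Gy and 6 at 65 Gy at 2 weeks, and 8 and 7 at 6 weeks. Among all genes tested these shares were 15.5% and 15.9% at 2 weeks, and 29.4% and 28.2% at 6 weeks. C3 at 65 Gy and 2 weeks, C2 and C3 at 75 Gy and 6 weeks, and C3 and Cfb at 65 Gy and 6 weeks met this description without passing both limits.

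The 2 doses were compared next, at each time. At 2 weeks 0 of the 9 genes and 0% of all genes tested differed between 75 and 65 Gy by both limits, and DESeq2 and edgeR's exact test also called 0 of the 9. At an unadjusted p under 0.05 there were 4: C1qa, C1qb, C1qc and C3ar1. The share of all genes under this weaker rule was not taken, here or in the comparisons that follow, so such counts are not read as results. The log2 difference was 0.76 for C1qa (95% interval 0.19 to 1.34), 0.75 for C1qb (0.25 to 1.25), 0.75 for C1qc (0.19 to 1.31) and 0.91 for C3ar1 (0.20 to 1.62), each with an adjusted p of 0.693. These differences rested on library 3134. Without it they were 0.23, 0.28, 0.22 and 0.13, and that of Cfb turned from 0.60 to -0.78. The intervals of C2, C3, C4b and C5ar1 lay between -0.52 and 0.51.

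At 6 weeks 0 of the 9 genes and 0% of all genes differed between the doses by both limits, 0 at an unadjusted p under 0.05, and 0 with DESeq2 or the exact test. The log2 difference was between 0.30 and 0.38 for the C1q chains, 0.43 for C2 (95% interval -0.08 to 0.94), -0.01 for C3, 0.29 for C4b, 0.41 for Cfb, -0.10 for C3ar1 (-0.89 to 0.69) and -0.23 for C5ar1. The interval ran to 1.03 for C1qa and from -0.74 to 1.56 for Cfb, so for these genes a 2-fold difference was not outside it.

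**Figure D3:**
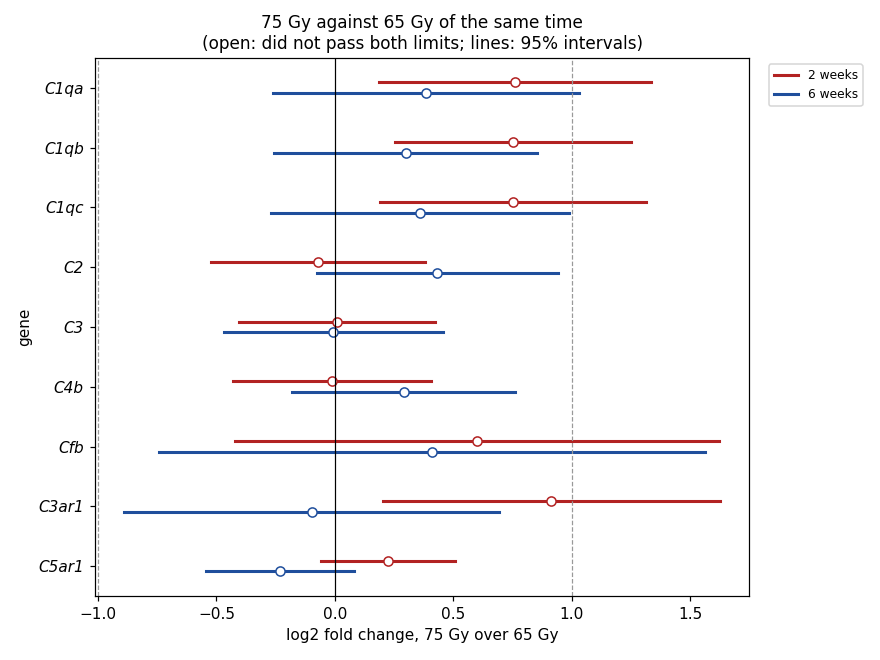
Log2 fold change of 75 Gy over 65 Gy for each gene, with 95% intervals, at 2 weeks (red) and 6 weeks (blue); dashed lines mark the fold limit. No point is filled because none passed both limits, and the values of 0.75 to 0.91 for the C1q chains and C3ar1 at 2 weeks fall to between 0.13 and 0.28 without library 3134.

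Whether the response changed from 2 to 6 weeks was tested as the difference between the effects at each time. At 75 Gy 0 of the 9 passed both limits, where 0.254% of all genes did, and 2, C2 and C4b, had an unadjusted p under 0.05. The effect on C4b was larger at 6 weeks by 1.17 on the log2 scale (SE 0.28, adjusted p = 0.102), and by 1.16 with DESeq2, which alone called it (adjusted p = 0.00531). For C2 the difference was 0.88 (SE 0.30, adjusted p = 0.198), for C1qb 0.06 (95% interval -0.65 to 0.76) and for C3ar1 -0.93 (-1.98 to 0.13), or -0.14 without library 3134. At 65 Gy 0 passed with edgeR or DESeq2, against 0.0136% of all genes, and C4b (0.87, adjusted p = 0.469) and C5ar1 (0.43, adjusted p = 0.573) had an unadjusted p under 0.05. Without control library 3128 the change in the effect on C4b was 0.88 at 75 Gy and 0.58 at 65 Gy.

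The controls of the 2 times were compared as well. All 9 genes had lower mean CPM in the 6-week than in the 2-week controls, with log2 differences from -0.74 for C2 and -0.60 for C3 to -0.22 for C5ar1. None passed both limits, by edgeR or by DESeq2, where 0.576% of all genes did, and C2, C3 and C4b had an unadjusted p under 0.05. Library 3128 was the highest 2-week control for C2, C3 and C4b. Without it the log2 differences were -0.51 for C2, -0.39 for C3 and -0.24 for C4b. For each of these genes that was the smallest difference among the fits that left out 1 library. For C4b the log2 difference of 6-week over 2-week controls was -0.53 (adjusted p = 0.210), while its mean after 75 Gy was 319 ± 30.1 CPM at 2 weeks and 497 ± 44.2 CPM at 6 weeks (SD, n = 3 each).

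Of 47 other complement genes, all were in the table and 42 passed the filter. At 2 weeks 6 rose and 1 fell at 75 Gy, and 5 rose and 0 fell at 65 Gy. At 6 weeks 9 rose and 1 fell at each dose. Among all 22052 genes tested, 5.67% rose and 457 genes fell at 75 Gy at 2 weeks, and 3.47% rose and 194 fell at 65 Gy. At 6 weeks 7.28% rose and 691 genes fell at 75 Gy, and 4.34% rose and 208 fell at 65 Gy. The counts by role below rest on few genes and are to be read beside these shares. Their median log2 fold change was 0.04 at 75 Gy and 0.05 at 65 Gy at 2 weeks, and 0.53 and 0.26 at 6 weeks. Most of the list did not pass the limits at either time, and those that did included recognition and amplification genes, regulators and leukocyte receptors.

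Among those that start the cascade, 1 of 12 tested rose. Fcna, a ficolin of the lectin pathway that macrophages make, went from 1.01 to 3.07 CPM at 65 Gy and 2.87 CPM at 75 Gy at 2 weeks, and from 0.584 to 1.79 and 3.12 CPM at 6 weeks. Its log2 fold changes were 1.60 and 1.51 at 2 weeks and 1.62 and 2.42 at 6 weeks, and the 65 Gy call at 6 weeks was lost without library 3138 (adjusted p = 0.0669). Mbl1, a mannose-binding lectin, fell at 65 Gy and 6 weeks from 6.62 to 3.16 CPM (log2 fold change -1.07, adjusted p = 0.00347), and this call was lost without control library 3136 or 65 Gy library 3138.

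Of the amplification genes, Cfp and C4a rose. Cfp encodes properdin, the stabiliser of the alternative-pathway enzyme that leukocytes carry. It rose from 15.3 to 42.6 CPM at 65 Gy (log2 fold change 1.47) and 59.4 CPM at 75 Gy (1.95) at 6 weeks. At 75 Gy and 2 weeks it rose by 1.44, a call that fell under the fold limit at 0.96 without library 3134. C4a rose at 6 weeks by 1.09 at 65 Gy and 1.31 at 75 Gy, near the values of C4b with which it may share reads, and the 65 Gy call was lost without control library 3135, as for C4b. Of the 3 membrane attack genes tested, 0 passed either way in these comparisons. By edgeR's adjusted p alone, without the fold limit, 1 did at 75 Gy and 6 weeks, as did 7935 of all 22052 genes tested.

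Of 15 regulators tested, 1 rose at 2 weeks and 4 at 6 weeks at each dose. Cfi, the protease that inactivates C3b and C4b, had the largest rise among them that rests on more than a few counts. It stood at 1.32, 1.05 and 1.07 CPM in 2-week controls, 2.86, 3.06 and 3.54 CPM at 65 Gy and 3.13, 2.90 and 4.63 CPM at 75 Gy. By 6 weeks it was at 0.714, 0.874 and 0.803 CPM in controls, 3.56 and 5.79 CPM at 65 Gy and 6.40, 5.70 and 7.18 CPM at 75 Gy. Its log2 fold changes were 1.46 at 65 Gy and 1.63 at 75 Gy at 2 weeks, and 2.55 and 3.01 (SE 0.23) at 6 weeks. Clu, encoding clusterin, which binds terminal complement complexes, rose at 6 weeks from 151 to 356 CPM at 65 Gy (1.23) and 461 CPM at 75 Gy (1.61). Csmd1, a membrane inhibitor, rose at 6 weeks by 1.34 and 1.56 from 0.981 CPM, and the 65 Gy call was lost without library 3138. C4bp, the C4b-binding regulator, had 3, 0 and 0 counts in the 6-week controls, 15 and 19 at 65 Gy and 27, 36 and 31 at 75 Gy, so no fold is given. It was called at both doses, and at 65 Gy the call (adjusted p = 0.0479) was lost in 13 of 17 fits that left out 1 library.

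Of 8 receptors and binding proteins, 3 rose and 1 fell at 75 Gy and 2 weeks. Itgax and Itgb2, which pair as complement receptor 4 on macrophages and dendritic cells, rose in all 4 comparisons. Itgax rose by 1.15 at 65 Gy and 1.74 at 75 Gy at 2 weeks and by 1.61 and 1.72 at 6 weeks, and Itgb2 by 1.27, 1.63, 1.42 and 1.55 in the same order. Without library 3134 the 75 Gy rise at 2 weeks was 1.21 for each and still passed. Itgam, the partner of Itgb2 in complement receptor 3, rose at 2 weeks, from 48.0 to 102 CPM at 65 Gy and 135 CPM at 75 Gy. The 65 Gy call (1.08, adjusted p = 0.0499) was lost in 14 of 17 fits that left out 1 library, and the 75 Gy call (1.50) was lost without library 3134, at 0.72, and with only the 2 groups compared in the fit. Cr2, a B cell receptor for C3d, fell at 75 Gy and 2 weeks by 1.19 on the log2 scale, a call lost without control library 3126 (-0.85) and with only the 2 groups compared in the fit. Cd79a, a B cell marker, had a log2 fold change of -0.93 in the same comparison (adjusted p = 0.00773), from 44.7 to 23.5 CPM. Cd93, an endothelial and myeloid surface protein once described as a C1q receptor, fell at 75 Gy and 6 weeks from 588 to 273 CPM (-1.11, adjusted p = 0.000631). Endothelial markers (Cdh5, Pecam1 and 2 others) summed to between 2854 and 2947 CPM in those controls and between 1195 and 1443 CPM at 75 Gy. The part of endothelium in the fall of Cd93 and of B cells in that of Cr2 was not tested.

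**Figure D4:**
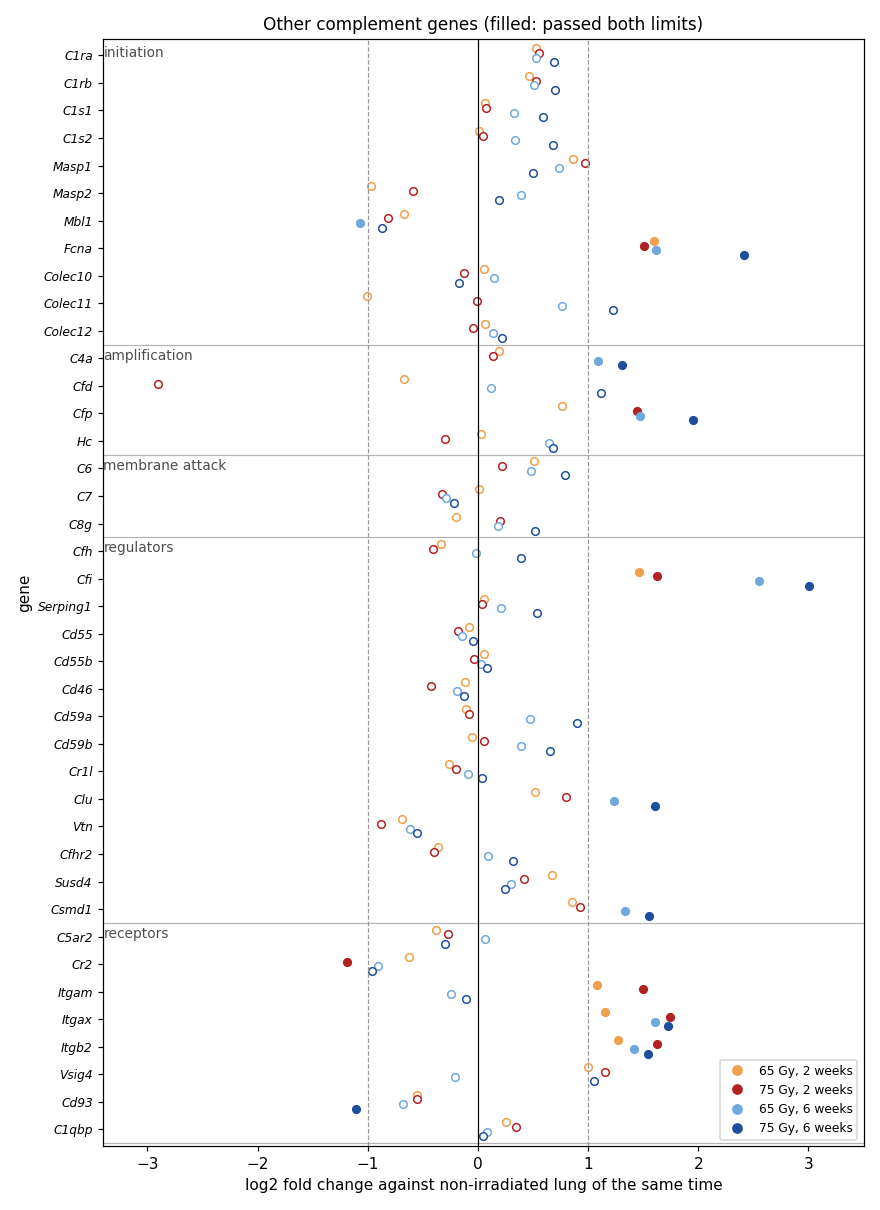
Log2 fold change of 40 of the 42 other complement genes tested, by role, over controls of their own time (C4bp and Fcnb, at or near 0 counts in several libraries, are left out); filled points passed both limits. Most points lie between the dashed fold limits, and Cfi, Itgax, Itgb2 and Fcna are filled in all 4 comparisons.

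Some macrophage markers rose in the same comparisons as the C1q chains and C3ar1, and others did not. Of 8 markers, 4 rose at 2 weeks and 6 at 6 weeks at each dose. Their summed level, mostly that of Lyz2, lay between 5005 and 10474 CPM in 2-week controls, between 8481 and 9340 CPM at 65 Gy and between 11496 and 13320 CPM at 75 Gy. By 6 weeks this sum lay between 4390 and 4861 CPM in controls, between 10930 and 12321 CPM at 65 Gy and between 13311 and 14507 CPM at 75 Gy. The highest 2-week control, library 3126, overlapped the 65 Gy group. That library also had the highest alveolar type 2 marker sum of the controls, 30432 CPM. Its C1q sum, 94.3 CPM, lay within the 83.8 to 95.0 CPM of the 2-week controls. The macrophage marker sum is thus mostly the level of 1 gene and is not read as macrophage number. Csf1r, the macrophage growth factor receptor, had log2 fold changes of 0.44 and 0.80 at 2 weeks and 0.32 and 0.48 at 6 weeks at 65 and 75 Gy and did not pass both limits. Cd68, a lysosomal protein of macrophages, rose by 2.14 and 2.48 at 2 weeks and by 2.14 and 2.22 at 6 weeks. The study did not sort cells, and the part of macrophage number in the C1q result was not tested.

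The ratio of C1q to these markers depended on the marker. The 3 chains summed to between 70.4 and 95.0 CPM in the 6 controls and between 423 and 1355 CPM in the 11 irradiated libraries. The log2 ratio of this sum to that of the 8 markers, mostly Lyz2, lay between -6.79 and -5.90 in controls and between -4.69 and -3.30 in irradiated libraries. Marker by marker, the ratio did not overlap between the sets for 6 of the 8 (Adgre1, Csf1r, Mertk, Lyz2, Mrc1 and Cd14) and overlapped for Cd68 and Fcgr1. The C1q sum itself did not overlap between the sets. The share of all genes to which its ratio does not overlap was not taken, so this count is not read as a result. Against Csf1r it lay between -1.30 and -0.78 in controls and between 0.90 and 1.57 after irradiation. Against Cd68 it lay between 0.79 and 1.24 in controls and between 1.22 and 2.22 after irradiation. Fcgr1, a high-affinity receptor for immunoglobulin G, itself rose by 2.21 at 65 Gy and 3.04 at 75 Gy at 2 weeks, and by 2.05 and 2.43 at 6 weeks. Against it the ratio at 2 weeks lay between 3.85 and 4.55 in controls, between 4.19 and 4.64 at 65 Gy and between 4.15 and 4.81 at 75 Gy, which overlap. At 6 weeks the same ratio lay between 4.27 and 4.69 in controls and between 5.16 and 5.39 in irradiated libraries. These are within-library descriptions and were not tested.

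**Figure D5:**
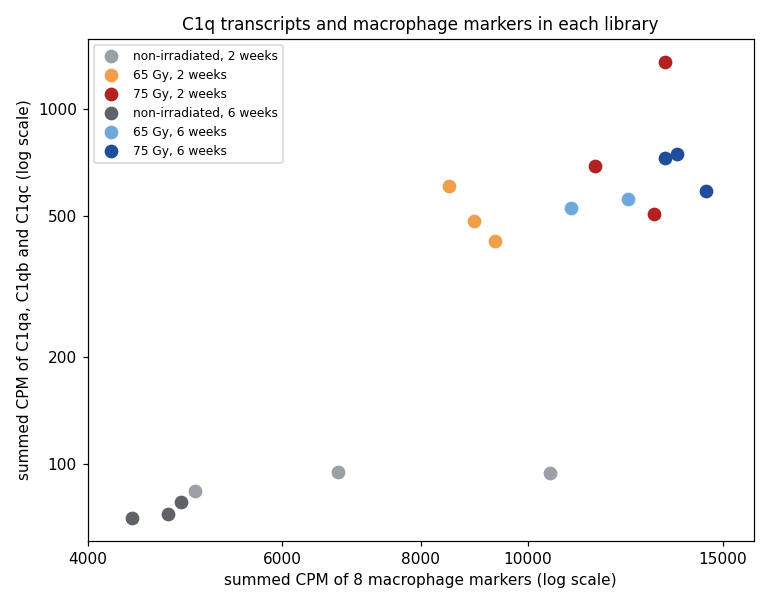
Summed CPM of C1qa, C1qb and C1qc against the summed CPM of 8 macrophage markers in each of the 17 libraries, both on log axes, coloured by group. Control libraries lie between 70.4 and 95.0 CPM of C1q and irradiated libraries between 423 and 1355 CPM, and the marker sum, mostly Lyz2, reaches 10474 CPM in control library 3126.

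Other cell types that the tissue could hold were followed by their markers. Neutrophil markers (S100a9, Csf3r and 5 others), a cell type that carries C5ar1, summed to between 444 and 744 CPM in controls of both times and between 134 and 357 CPM in irradiated libraries, with 6 of 7 falling at 2 weeks and 2 of 7 at 6 weeks at each dose. C5ar1 lay between 17.3 and 26.0 CPM over the same libraries. Alveolar macrophage markers summed to between 497 and 1094 CPM in 2-week controls and between 622 and 832 CPM in irradiated lungs, and at 6 weeks to between 471 and 607 CPM and between 1138 and 1870 CPM. Of these 6 markers, 1 rose and 2 fell at each dose at 2 weeks and at 75 Gy at 6 weeks, and 2 rose and 0 fell at 65 Gy at 6 weeks. The 6-week sum was mostly Chil3, which went from 329 CPM to 1422 CPM at 65 Gy and 1106 CPM at 75 Gy. Car4 went the other way, from 149 CPM in controls to 110 and 85.8 CPM. Endothelial marker sums were also lower in irradiated libraries, at both times. At 2 weeks they lay between 2584 and 2917 CPM in controls, between 1956 and 2005 CPM at 65 Gy and between 1178 and 2091 CPM at 75 Gy. At 6 weeks they lay between 2854 and 2947 CPM in controls, between 1551 and 1740 CPM at 65 Gy and between 1195 and 1443 CPM at 75 Gy. The part of endothelium in the level of Car4 was not tested, so Car4 is not read as a measure of alveolar macrophages alone. Fibroblast markers (Col1a2, Col1a1 and 3 others), a cell type that makes C3 and C4, summed at 2 weeks to between 1286 and 1781 CPM in controls, between 1304 and 1744 CPM at 65 Gy and between 1264 and 1770 CPM at 75 Gy, which overlap. At 6 weeks the fibroblast sum was between 1013 and 1200 CPM in controls and between 1117 and 1323 CPM in irradiated lungs. The sum hides moves in both directions. Of the 5 fibroblast markers, 1 rose at 75 Gy and 6 weeks. By adjusted p alone, 2 were lower at each dose at 2 weeks. At 6 weeks, 2 were higher and 1 lower at 75 Gy, and 1 was lower at 65 Gy. Of all 22052 genes tested, this rule gave 2315 lower at 75 Gy and 945 lower at 65 Gy at 2 weeks. At 6 weeks it gave 3963 higher and 3972 lower at 75 Gy, and 1545 lower at 65 Gy. The fibroblast counts are to be read beside these. For 2 of the 5 fibroblast markers the 75 Gy effect was larger at 6 than at 2 weeks by both limits. The part of neutrophils, alveolar macrophages and fibroblasts in the complement values was not tested.

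The genes whose pattern over the 17 libraries was most like that of each of the 9 were named by Pearson correlation of log2 CPM, among genes with a mean of at least 1. These correlations span control and irradiated libraries and so mostly record which genes differ between them. For C1qa they were Ptger4, Ms4a7 and Cxcl9 (r = 0.989, 0.987 and 0.987), for C1qb Ms4a7, Trem2 and Ctsd (0.991, 0.991 and 0.988) and for C1qc Ms4a7, Cd68 and Tnfrsf23 (0.988, 0.987 and 0.987). For C3ar1 they were the cathepsin genes Ctsz and Ctsb and Lrp12 (0.991, 0.989 and 0.989), and for Cfb Irf7, Scpep1 and Il18bp (0.972, 0.971 and 0.970). C3 was most like Mmp14, C1ra and Col1a2 (0.939, 0.928 and 0.925), C2 like Col3a1, Ncoa7 and Syn2 (0.870, 0.863 and 0.859), and C4b like C4a, Ildr2 and Mdk (0.994, 0.935 and 0.914). C5ar1 had no close match, with Nle1, Kcnq1ot1 and Ecpas at 0.761, 0.710 and 0.709. With Spearman's rank correlation, 1 of the 3 genes was shared for C4b and C5ar1 and 0 for the other 7, so single names depend on the measure.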

How the data were processed

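RNA of 17 mouse lung libraries was sequenced from poly(A)-selected, strand-marked libraries. Per the study's methods, the authors trimmed reads with Trimmomatic, mapped them with HISAT2 to GRCm38.p6 and estimated expression with StringTie, and they deposited a table of raw counts per gene (45777 genes, 46764569 to 66797879 counts per library). How StringTie's estimates became counts, and whether strand was used, is not given in the sources used here.

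From the counts, genes were filtered with filterByExpr (minimum count 10, minimum total 15), which kept 22052. Libraries were scaled by the trimmed mean of M-values and fitted together, with 1 coefficient per group, by edgeR 4.0.16 in R 4.3.3 (quasi-likelihood test). Calls needed an adjusted p (Benjamini-Hochberg) no higher than 0.05 and a log2 fold change of 1 or more in size, as in the study. Groups were taken from the sample labels, whose library numbers name the replicates. That replicates are separate mice is not stated for each library, so p-values measure the spread between these libraries. In simulated counts for 75 Gy against control at 2 weeks (20975 genes), 192 of 200 4-fold changes were recovered with 5 false calls. The changed genes were drawn from those with higher counts, only the 75 Gy group at 2 weeks was changed, and no library was made to stand apart from its group. These figures check the procedure in that setting and are not error rates for the data. Levels per kb used transcript lengths of the same build.

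The members and all gene lists were chosen with earlier results of these data known. All 9 members were named, every other complement gene called in at least 1 comparison with controls, the 2 genes of highest mean level of each marker list the text uses, and the 3 genes nearest to each member. Cd68, Fcgr1 and Cd79a were named, and the ratios of C1q to each macrophage marker and of C3ar1 to C5ar1 and Cfb to C2 formed, after their values were seen. Of the 13 marker lists written, plasma cell, T cell, alveolar type 1, mesothelium and adipocyte markers were not used here, and some items are not reported here. Alternatives were DESeq2 1.42.0, edgeR's exact test, other scaling factors and filters, calls without the fold limit, fits of only the groups compared, and each library left out.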

Additional observations from a re-analysis of the deposited data

How the results depend on the processing

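The number of the 9 genes called against controls was 4 to 5 at 75 Gy and 5 at 65 Gy at 2 weeks over the other settings. At 6 weeks it was 6 to 8 at 75 Gy and 5 to 6 at 65 Gy. The 8 came only from dropping the fold limit, which added C2 and C3. Under the other tools, scalings, filters and fits the number at 75 Gy and 6 weeks stayed at 6. When any 1 library was left out the numbers were 5, 5, 6 to 7 and 4 to 6 in the same order. The lowest at 75 Gy and 2 weeks came from a fit of only the groups compared, in which Cfb had an adjusted p of 0.0548. Cfb at 65 Gy and 6 weeks was called with at least 10 counts in every library (adjusted p = 0.0476), by the exact test (0.0199), with only the groups compared in the fit (0.00122) and without 75 Gy library 3132, 3133 or 3134 (0.0249, 0.0300 and 2.82e-05). For the change in the 75 Gy effect from 2 to 6 weeks, DESeq2 called 1 of the 9, C4b, against 0 in edgeR. The dose, control and 65 Gy time comparisons called 0 under every setting run.

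No paired analysis was possible because the labels give no library number to more than 1 sample. Of 630 values of single genes under other settings, 616 kept direction and side of the limits, and of 1377 with 1 library left out, 1339 did. Reversals concerned values that were not called. With upper-quartile factors these were C3 for 75 over 65 Gy at 6 weeks (0.0075) and, for the change in the 75 Gy effect, C1qa (0.039) and C5ar1 (0.011). C4b for 75 over 65 Gy at 2 weeks was 0.0047 without the filter and 0.0021 with only the groups compared in the fit, and the change for C1qa was 0.00044 with at least 10 counts in every library. Leaving out 1 library, C2 at 2 weeks ranged from -0.12 to 0.30 at 75 Gy and from -0.056 to 0.37 at 65 Gy, and C5ar1 at 75 Gy from -0.017 to 0.076 at 2 weeks and from -0.10 to 0.12 at 6. For 75 over 65 Gy at 2 weeks, C2 ranged from -0.16 to 0.064, C3 from -0.21 to 0.15, C4b from -0.11 to 0.086 and Cfb from -0.78 to 0.99, and C3 at 6 weeks from -0.15 to 0.12. The change in the 75 Gy effect ranged from -0.28 to 0.53 for C1qa, -0.16 to 0.53 for C1qb, -0.32 to 0.48 for C1qc, -0.14 to 0.085 for C5ar1 and -1.19 to 0.57 for Cfb, and that at 65 Gy from -0.062 to 0.19 for C3ar1. Groups of 2 or 3 libraries limit the precision, and in a group left with 1 library that library is assumed to vary like the other groups. Of the 9 genes, C3ar1 has the fewest reads in controls.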
